A study of Mus musculus with 26 samples.

Results

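The genes described here encode proteins that recognise or remove N6-methyladenosine (m6A), the methyl mark on adenosines inside messenger RNA. They are 10 in number: the YTH-domain readers Ythdf1, Ythdf2, Ythdf3, Ythdc1 and Ythdc2, the insulin-like growth factor 2 mRNA-binding proteins Igf2bp1, Igf2bp2 and Igf2bp3, and the demethylases Alkbh5 and Fto. They were chosen by name, and a gene was measured by the array probe set that the probe table lists with that gene alone, the brightest of them by mean signal where there were several. By this rule 7 of the 10 genes had a probe set, of 22180 genes on the array, and all 7 stayed among the 14787 genes tested after the dimmest were left out. Ythdf2 and Igf2bp2 are not listed with a single symbol and were not analysed here. Igf2bp1 shares its probe set with the microRNA gene Mir3063, and its values are given for the pair.

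A methyltransferase complex built around METTL3 and METTL14 places m6A on messenger RNA, and the demethylases FTO and ALKBH5 can take a methyl group off again. Proteins with a YTH domain hold the methylated base in an aromatic pocket: YTHDF proteins act in the cytoplasm, where they speed the decay of bound messages or favour their translation, YTHDC1 acts in the nucleus in splicing and export, and YTHDC2 is an RNA helicase best known from meiosis in the germline. IGF2BP proteins, which are abundant in embryonic and many tumour cells, have been described as stabilising the messages they bind, m6A-bearing ones among them.

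RNA came from J1 mouse embryonic stem cells, a line grown here in serum and leukaemia inhibitory factor on irradiated embryonic fibroblasts, so that a bulk sample can hold feeder RNA. A time course of 18 arrays held 9 groups of 2, namely Mettl14 knockdown, Mettl3 knockdown and scramble control taken at 0 h, at 4 h or at 8 h. Another 8 arrays, all 0 h, form a repeat set with 4 groups of 2: Mettl14 knockdown with its own scramble control, and Mettl3 knockdown with its own scramble control. The cells of all groups carry no other stated genetic change. The labels describe knockdown both by lentiviral short hairpin RNA with puromycin selection and by transfected small interfering RNA (siRNA), without saying which arrays had which, and name no agent for the 4 h and 8 h incubations. Replicate 2 of each scramble control in the repeat set is described as 4 h but titled 0 h, and was taken as 0 h. All values are log2 signals on the Affymetrix Mouse Gene 2.0 ST array, and a level of one probe set cannot be set against that of another. A change is a difference of log2 group means with its standard error (SE), n = 2 arrays in each group, and "passed" means an adjusted p under 0.05 over the 14787 genes in limma.

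The siRNA target sites that the labels give for the knocked-down genes are shown because they are the knockdown reagents whose sequence the labels give, though which arrays had siRNA is not stated. Capitals mark bases 12 to 18, which pair with bases 2 to 8 of the guide strand.
Mettl3 site 1: ggactgcgatgTGATTGTa
Mettl3 site 2: gacgaattatcAATAAGCa
Mettl14 site 1: ccggatgtacaGAGGAAAt
Mettl14 site 2: gggaactcatcAGACTAAa
Mettl14 site 3: gcacctcggtcATTTATAt

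The promoters of Igf2bp3 and Ythdc1 are shown because these genes were higher in every knockdown comparison of both sets. RefSeq's table for build GRCm38.p6 holds a promoter window for 7 of the 10 genes, each of 250 bases before and 50 bases after a gene start. Capitals mark matches on either strand to the E-box CACGTG, the GC box GGGCGG, the CCAAT box or the TATA box TATAAA.
Igf2bp3, chr6:49214905-49215204, minus strand: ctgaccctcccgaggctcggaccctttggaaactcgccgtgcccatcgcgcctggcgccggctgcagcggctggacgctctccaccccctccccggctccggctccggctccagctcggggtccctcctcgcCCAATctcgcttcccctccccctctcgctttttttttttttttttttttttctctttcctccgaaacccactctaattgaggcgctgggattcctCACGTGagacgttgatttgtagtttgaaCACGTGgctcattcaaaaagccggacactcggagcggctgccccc
Ythdc1, chr5:86804016-86804315, plus strand: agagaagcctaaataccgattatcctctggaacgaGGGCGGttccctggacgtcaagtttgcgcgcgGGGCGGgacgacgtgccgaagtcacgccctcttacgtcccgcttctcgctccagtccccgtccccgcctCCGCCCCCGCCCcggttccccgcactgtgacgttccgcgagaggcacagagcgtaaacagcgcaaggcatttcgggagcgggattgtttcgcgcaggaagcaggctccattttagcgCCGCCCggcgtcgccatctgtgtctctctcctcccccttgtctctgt

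Both windows lie inside their gene's span in the same annotation, chr6:49085218-49215469 for Igf2bp3 and chr5:86803980-86836659 for Ythdc1. The Igf2bp3 window held 2 E-boxes, starting at -23 and 6 from the gene start, and 1 CCAAT box. An E-box is present in 7.15% of the 32851 promoter windows of the table, and more than 1 in 0.594%, while a CCAAT box is present in 37.4%. The Ythdc1 window held 5 GC boxes and no match to the other motifs, and a GC box is present in 35.7% of the windows. Neither window held TATAAA, which is present in 13.6% of the windows, and they shared none of the 4 motifs searched. These matches describe letters only and were not tied to any factor.

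Both target genes were lower on their own knockdown arrays. Mettl14 was lower in its knockdown by log2 changes from -2.66 ± 0.13 to -1.36 ± 0.10 over the 4 comparisons, and Mettl3, on a probe set it shares with Tox4, was lower in the Mettl3 knockdown by -2.65 ± 0.10 to -1.89 ± 0.10. The probe set shared with Tox4 was also lower after Mettl14 knockdown, by -0.57 ± 0.10 to -0.45 ± 0.06, and passed in all 4 comparisons. Mettl14 did not pass after Mettl3 knockdown, with changes of -0.22 ± 0.10 to -0.10 ± 0.13. Replicate arrays correlated at r = 0.9869 to 0.9926 over probe sets. Of 9 tested pluripotency genes, 8 were lower after Mettl14 knockdown and 9 after Mettl3 knockdown in the time course at 0 h, and 9 and 9 in the repeat set. Of 16 tested markers of feeder fibroblasts, 9 were higher and 0 lower after Mettl14 knockdown and 8 higher and 1 lower after Mettl3 knockdown in the time course at 0 h, and 7 higher and 0 lower in either knockdown of the repeat set. Of all tested genes 19.4% were higher and 20.1% lower for Mettl14 in the time course at 0 h, and 19.3% and 18.6% for Mettl3. In the repeat set 19.4% were higher and 16.9% lower for Mettl14, and 17.9% and 17.4% for Mettl3. Fewer cells of a type and less RNA per cell cannot be told apart in these bulk samples.

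Of the 7 measured genes, 5 passed after Mettl14 knockdown at 0 h of the time course, where 39.5% of all tested genes passed. Igf2bp3, Ythdc1, Alkbh5 and Ythdf1 were higher (19.4% of all genes) and Fto was lower (20.1%). The same 4 were higher and Fto lower at 4 h, where 39.5% of all genes passed, 20% higher and 19.5% lower, and at 8 h, where 43.6% passed, 23.8% higher and 19.8% lower. After Mettl3 knockdown 3 passed at each time, Igf2bp3, Ythdc1 and Alkbh5, all higher. The background was 37.8% of all genes at 0 h (19.3% higher, 18.6% lower), 37.8% at 4 h (19.4% and 18.4%) and 42.8% at 8 h (23.8% and 19%). For Mettl14 in the repeat set 4 passed, Igf2bp3, Ythdc1, Ythdf3 and Fto, all higher, against 36.2% of all genes (19.4% higher, 16.9% lower). For Mettl3 in the repeat set 2 passed, Igf2bp3 and Ythdc1, both higher, against 35.3% (17.9% higher, 17.4% lower). The time course knockdowns share their scramble arrays, so their results are not independent of each other. The median change of all genes lay between -0.02 and 0.00 in the 8 knockdown comparisons. When the arrays were scaled to an equal median of 21 long-lived transcripts, the share of called genes that were higher after Mettl14 knockdown in the time course became 64.2% at 0 h and 66.2% at 8 h, against 49.1% and 54.6%, and after Mettl3 knockdown in the repeat set 35.4%, against 50.7%.

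**Figure D1:**
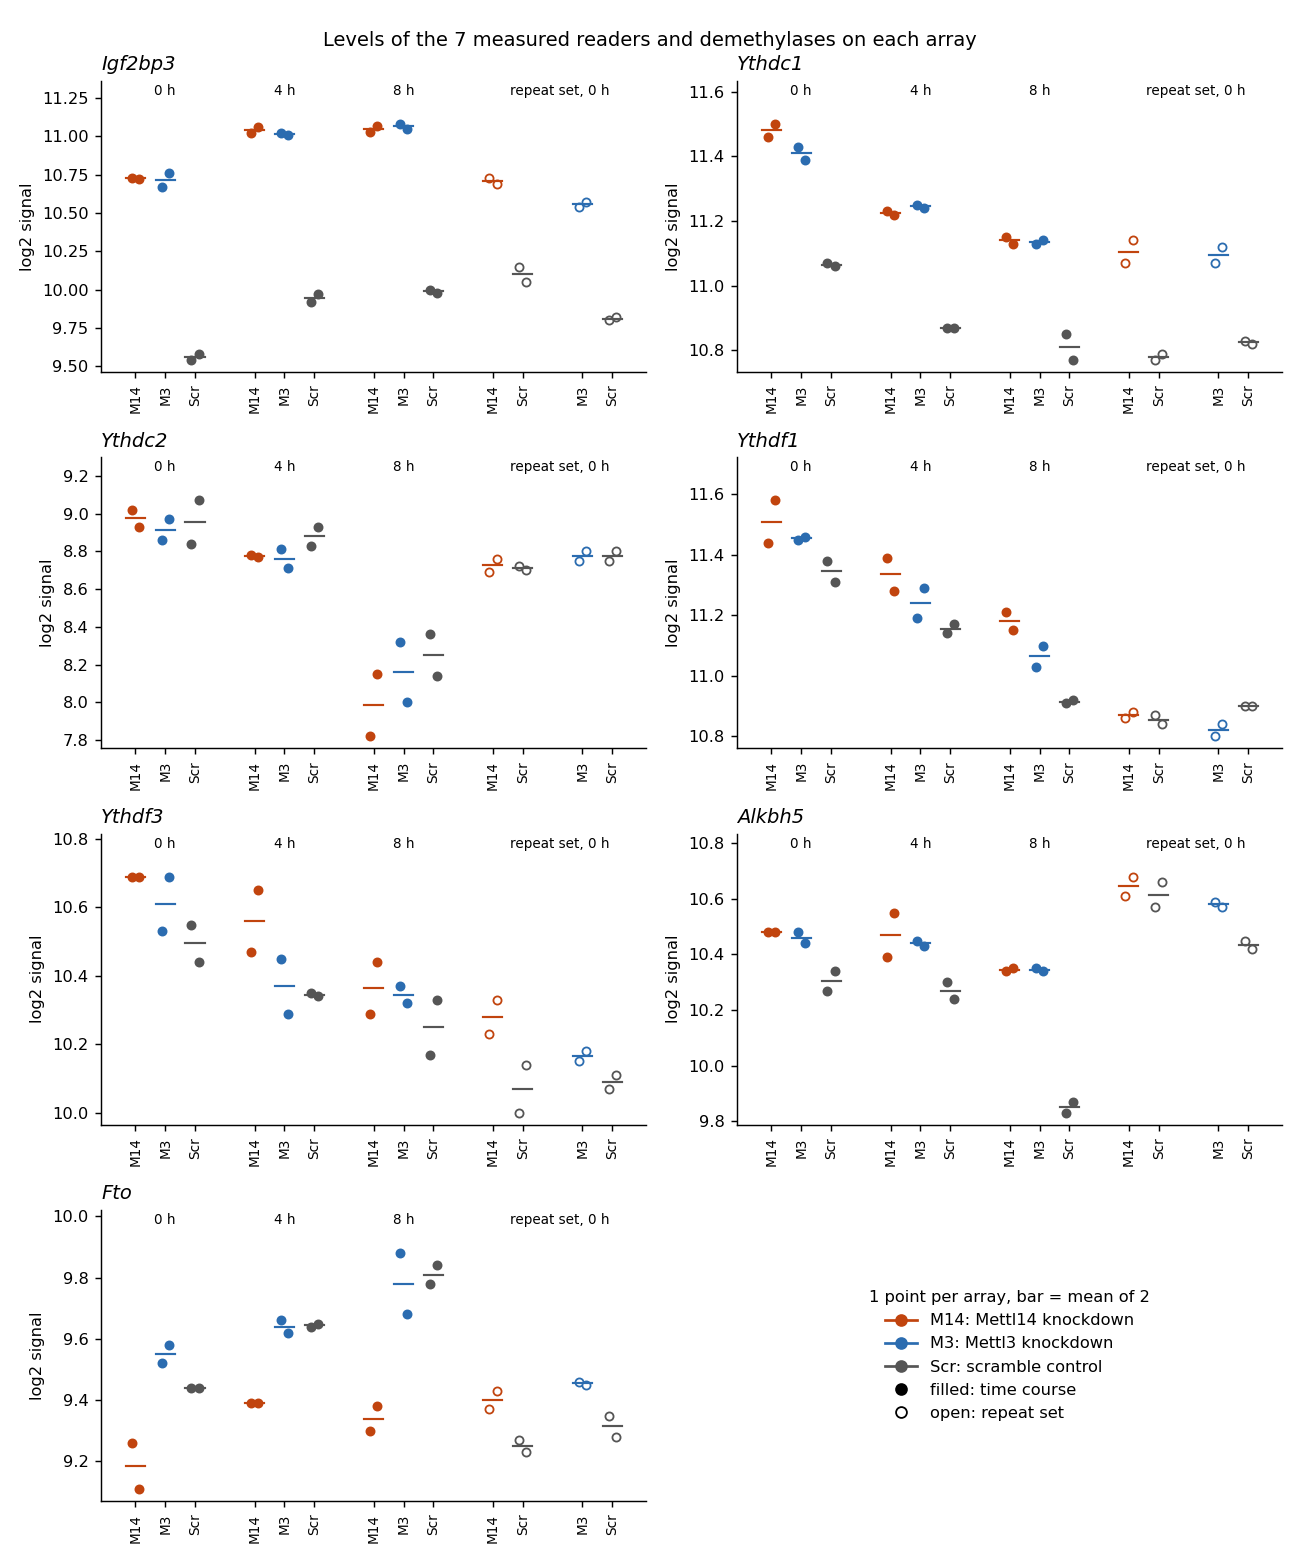
Log2 signal (y axis, its own range in each panel) of the 7 genes on each of the 26 arrays, by group (x axis: Mettl14 knockdown, Mettl3 knockdown and scramble at 0 h, 4 h and 8 h, then the repeat set). Points are arrays and bars are means of 2 arrays. Igf2bp3 and Ythdc1 lie higher on every knockdown array than on the scramble arrays of the same set and time, Alkbh5 falls to 9.83 and 9.87 in scramble at 8 h, and Fto lies lower on the Mettl14 knockdown arrays of the time course than on the scramble arrays of the same time.

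Igf2bp3, a reader of the IGF2BP family that is switched off in most adult tissues, showed the largest knockdown effect of the 7 in all 8 comparisons. At 0 h of the time course it had signals of 10.73 and 10.72 in Mettl14 knockdown and 10.67 and 10.76 in Mettl3 knockdown, against 9.54 and 9.58 in scramble. The knockdown arrays lay above both scramble arrays, with changes of 1.17 ± 0.05 (adjusted p = 2.65e-09) and 1.16 ± 0.05 (adjusted p = 3.35e-09). At 4 h the signals were 11.02 and 11.06 in Mettl14 knockdown and 11.02 and 11.01 in Mettl3 knockdown, against 9.92 and 9.97 in scramble. At 8 h they were 11.03 and 11.07 in Mettl14 knockdown and 11.08 and 11.05 in Mettl3 knockdown, against 10 and 9.98 in scramble. The gap between knockdown and scramble thus stayed at 1.06 to 1.09 at the later times, for Mettl14 knockdown with adjusted p = 5.72e-09 at 4 h and 6.09e-09 at 8 h.

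In the repeat set Igf2bp3 had 10.73 and 10.69 in Mettl14 knockdown, against 10.15 and 10.05 in its scramble control. The Mettl3 knockdown arrays had 10.54 and 10.57, against 9.80 and 9.82 in their own control. Again no knockdown array overlapped its control, with changes of 0.61 ± 0.05 (adjusted p = 0.000191) and 0.75 ± 0.05 (adjusted p = 0.000116). The rise was smaller than in the time course for both knockdowns, by -0.56 ± 0.06 for Mettl14 (adjusted p = 1.1e-05) and -0.41 ± 0.06 for Mettl3 (adjusted p = 0.000372) in a fit over all 26 arrays. In that comparison of the sets 16.5% of all genes passed for Mettl14 (8.64% with a positive difference, 7.86% negative) and 9.81% for Mettl3 (3.66% and 6.15%). Scramble arrays at 0 h had 9.54 and 9.58 in the time course and 9.80 to 10.15 in the repeat set. Levels also differed between the sets for other genes. Ythdf1 in scramble at 0 h had a mean of 11.34 in the time course, against 10.86 and 10.90 in the repeat set. Which groups account for the smaller rise of Igf2bp3 was not tested.

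Igf2bp3 also moved over time in every treatment. Between 0 h and 8 h it changed by 0.32 ± 0.05 in Mettl14 knockdown, 0.35 ± 0.05 in Mettl3 knockdown and 0.43 ± 0.05 in scramble (adjusted p = 8.86e-05, 5.19e-05 and 8.35e-06). These were 0.20, 0.24 and 0.29 relative to the median of all genes, which itself moved over time. At 4 h the changes were 0.31, 0.30 and 0.39, or 0.19, 0.20 and 0.26 relative to that median. The difference between the 8 h changes of knockdown and scramble did not pass, at -0.11 ± 0.07 for Mettl14 (adjusted p = 0.403) and -0.09 ± 0.07 for Mettl3 (adjusted p = 0.516). The order of its signals over the time course was knockdown at 8 h and 4 h, knockdown at 0 h, scramble at 8 h and 4 h, and scramble at 0 h, with the knockdowns close to each other at each time.

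Feeder fibroblast markers, taken as a mean, moved in the same direction as Igf2bp3. Their mean log2 signal over 16 genes was 8.01 and 8.04 in Mettl14 knockdown and 7.97 and 7.95 in Mettl3 knockdown in the time course at 0 h, against 7.42 and 7.46 in scramble. It was 8.20 and 8.15 in Mettl14 knockdown of the repeat set, against 8.01 and 7.97 in its control, and 8.11 and 8.07 in Mettl3 knockdown, against 7.82 and 7.82. It also moved over time, to 8.36 and 8.30 in Mettl14 knockdown, 8.18 and 8.30 in Mettl3 knockdown and 7.79 and 7.93 in scramble at 8 h. The marker genes that led this were Tagln, an actin-binding protein, at 2.22 ± 0.07 and 2.47 ± 0.07 at 0 h of the time course after Mettl14 and Mettl3 knockdown, Mmp2, a matrix protease, at 1.48 ± 0.08 and 1.41 ± 0.08, and Fstl1, a secreted glycoprotein, at 1.41 ± 0.05 and 1.25 ± 0.05. Other markers did not rise there. After Mettl3 knockdown Pdgfrb changed by -0.24 ± 0.06 (adjusted p = 0.00767). Pdgfra, at -0.28 ± 0.22, and Thy1, at -0.02 ± 0.12, did not pass. Pdgfrb had 7.17 and 7.12 in Mettl14 knockdown, against 7.32 and 7.30 in scramble. In the repeat set Pdgfrb was instead 8.39 and 8.44 in Mettl14 knockdown, against 8.16 and 8.27 in its control. The list's 4 fibrillar collagen genes, named after their values were seen, were mixed. After Mettl14 and Mettl3 knockdown in the time course at 0 h Col1a1 changed by 0.58 ± 0.09 and 0.40 ± 0.09 (adjusted p = 0.000334 and 0.00475) and Col5a1 by 0.71 ± 0.12 and 0.65 ± 0.12 (adjusted p = 0.000401 and 0.000833). Col1a2, at 0.05 ± 0.11 and 0.13 ± 0.11, and Col3a1, at 0.22 ± 0.12 and -0.12 ± 0.12, did not pass in any of the 8 knockdown comparisons. The markers Postn, Dcn and Lum were among the dim genes left out. Arrays with close marker means could differ in Igf2bp3. In the time course the marker mean was 7.93 in replicate 2 of scramble at 8 h, with Igf2bp3 at 9.98. It was 7.95 in replicate 2 of Mettl3 knockdown at 0 h, with Igf2bp3 at 10.76. The part of feeder RNA in the Igf2bp3 change was not tested.

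Markers of primed epiblast and of trophectoderm moved in the same groups. The mean over 7 primed epiblast genes was 8.97 and 9.03 in Mettl14 knockdown and 8.86 and 8.89 in Mettl3 knockdown in the time course at 0 h, against 8.01 and 8.10 in scramble, and 8.70 and 8.73 against 8.33 and 8.42, and 8.83 and 8.85 against 8.20 and 8.27, in the repeat set. The mean over 8 trophectoderm genes was 8.35 and 8.43 in Mettl14 knockdown and 8.31 and 8.32 in Mettl3 knockdown, against 7.59 and 7.64 in scramble, and 8.93 and 8.96 against 8.01 and 8.06, and 8.54 and 8.60 against 7.94 and 7.97, in the repeat set. These 2 lists differed by more than the feeder markers at 0 h of the time course. Leading them were Fgf5, a growth factor of the epiblast, at 3.02 ± 0.12 and 2.45 ± 0.12 after Mettl14 and Mettl3 knockdown in the time course, and the keratin gene Krt8, at 2.34 ± 0.05 and 2.51 ± 0.05. Not all genes of these lists rose. After Mettl3 knockdown in the time course at 0 h the trophectoderm gene Tfap2c changed by -1.20 ± 0.12 (adjusted p = 6.37e-06). The primed epiblast gene Dnmt3a changed by -0.59 ± 0.06 (adjusted p = 1.59e-05). Sox3, Cdx2, Gata3 and Hand1 did not pass in that comparison. The part of these lists in the Igf2bp3 change was not tested.

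**Figure D2:**
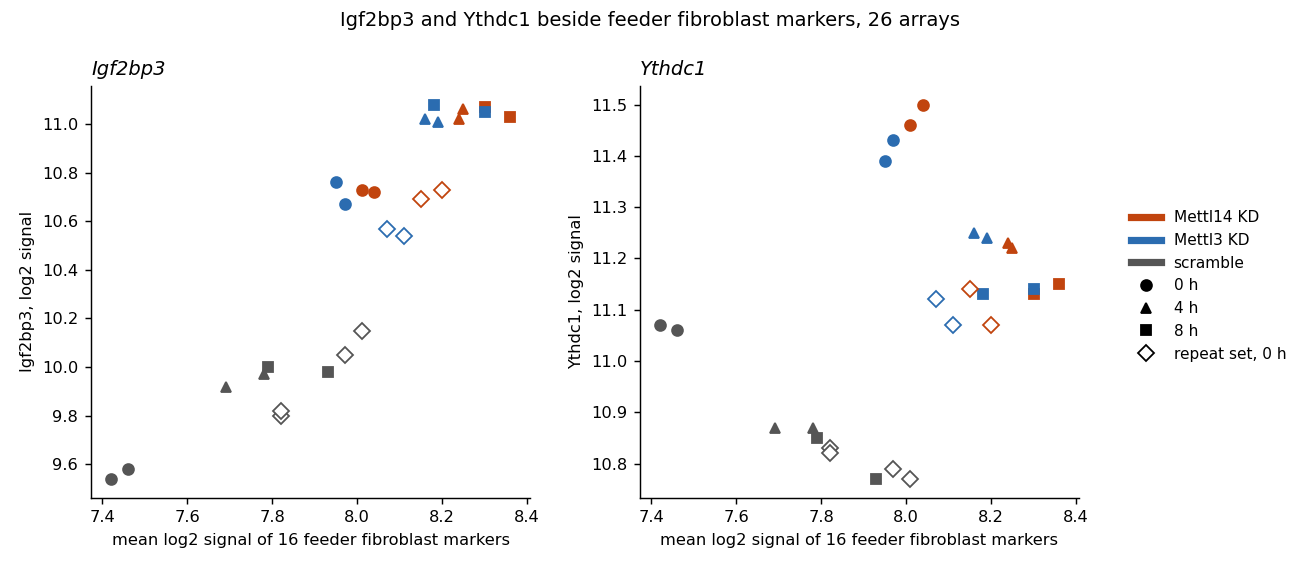
Log2 signal of Igf2bp3 (left) and Ythdc1 (right) on each of the 26 arrays (y axes) against the mean log2 signal of 16 feeder fibroblast markers on the same array (x axes). Colours give the treatment, filled shapes the time and open diamonds the repeat set. Igf2bp3 lies lowest where the marker mean is lowest, at 7.42 and 7.46. At close marker means it lies at 9.98 on a scramble array of 8 h (7.93) and at 10.76 on a Mettl3 knockdown array of 0 h (7.95). Ythdc1 lies higher on the knockdown arrays than on the scramble arrays of the same set and time.

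Igf2bp1, the paralogue best known for binding the beta-actin message, was higher on its probe set shared with Mir3063 at 0 h. It had 12.21 and 12.24 in Mettl14 knockdown and 12.22 and 12.14 in Mettl3 knockdown, against 12.01 and 11.99 in scramble, with changes of 0.22 ± 0.05 (adjusted p = 0.00439) and 0.18 ± 0.05 (adjusted p = 0.0167). It had 11.85 and 11.83 in Mettl3 knockdown against 11.54 and 11.49 in its control of the repeat set, a change of 0.33 ± 0.04 (adjusted p = 0.00145). Mettl14 knockdown there had 11.65 and 11.64 against 11.53 and 11.52, which did not overlap but did not pass (0.12 ± 0.04, adjusted p = 0.0666). At 4 h and 8 h the changes lay between -0.02 and 0.14 and did not pass. These values come from a fit with the shared probe sets added after the data were seen.

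Ythdc1, the nuclear YTH reader, was the other gene higher in all 8 comparisons, by a narrow range of 0.27 to 0.41. Its signals at 0 h of the time course were 11.46 and 11.50 in Mettl14 knockdown and 11.43 and 11.39 in Mettl3 knockdown, against 11.07 and 11.06 in scramble. The changes were 0.41 ± 0.04 (adjusted p = 1.19e-05) and 0.34 ± 0.04 (adjusted p = 5.98e-05), and no array overlapped. The repeat set gave 11.07 and 11.14 in Mettl14 knockdown against 10.77 and 10.79 in its control, and 11.07 and 11.12 in Mettl3 knockdown against 10.83 and 10.82. Those changes were 0.32 ± 0.04 (adjusted p = 0.00162) and 0.27 ± 0.04 (adjusted p = 0.00376), and their difference from the time course did not pass (-0.09 ± 0.06 and -0.07 ± 0.06, adjusted p = 0.321 and 0.509). At 8 h Ythdc1 had 11.15 and 11.13 in Mettl14 knockdown and 11.13 and 11.14 in Mettl3 knockdown, against 10.85 and 10.77 in scramble, changes of 0.33 ± 0.04 in both. The 4 h values lay in between, at 11.22 to 11.25 in the knockdowns and 10.87 on both scramble arrays, with changes of 0.35 ± 0.04 for Mettl14 and 0.37 ± 0.04 for Mettl3. The knockdown arrays stood above the scramble arrays at each time.

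**Figure D3:**
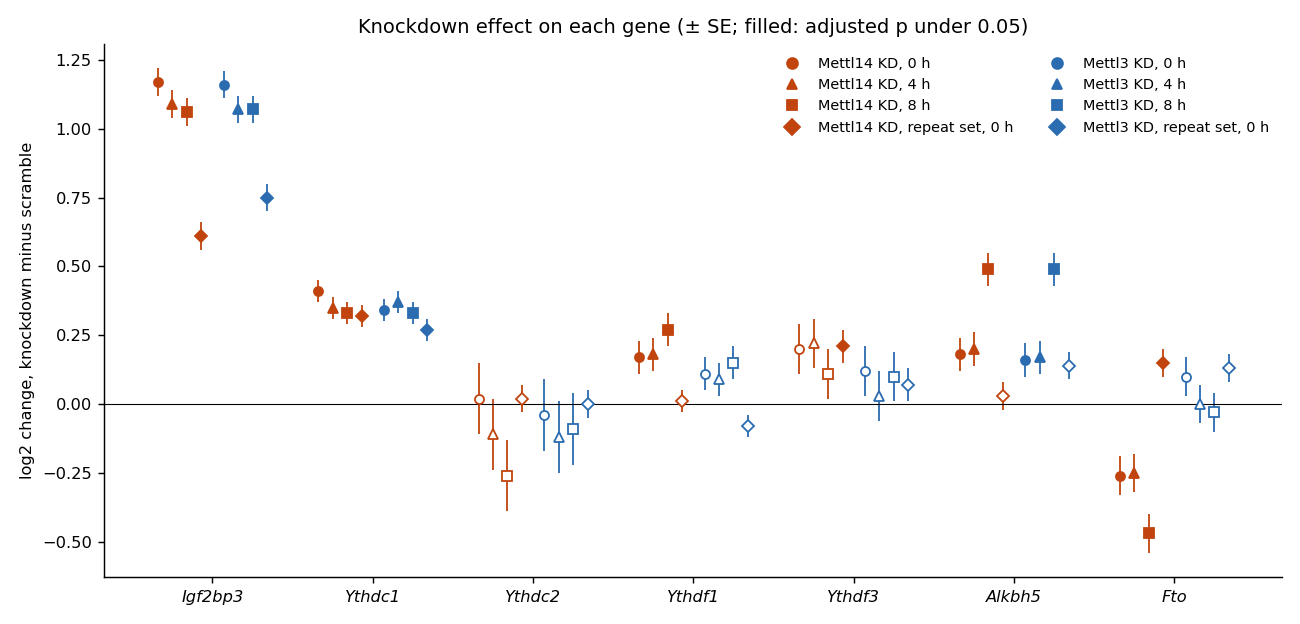
Log2 change, knockdown minus scramble (y axis, ± SE), of each gene (x axis) in the 8 knockdown comparisons, each between groups of 2 arrays. Filled symbols passed at an adjusted p under 0.05 over 14787 genes. Igf2bp3 lies between 0.61 and 1.17 and Ythdc1 between 0.27 and 0.41 throughout, while Fto lies below 0 for Mettl14 knockdown in the time course and above 0 in the repeat set.

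Alkbh5, the nuclear m6A demethylase, differed most from scramble at 8 h. It then had 10.34 and 10.35 in Mettl14 knockdown and 10.35 and 10.34 in Mettl3 knockdown, against 9.83 and 9.87 in scramble, and the change was 0.49 ± 0.06 in both (adjusted p = 1.57e-05 and 1.77e-05). At 0 h it had 10.48 and 10.48 in Mettl14 knockdown and 10.48 and 10.44 in Mettl3 knockdown, against 10.27 and 10.34 in scramble. These groups did not overlap either, but the gaps were smaller, at 0.18 ± 0.06 (adjusted p = 0.0216) and 0.16 ± 0.06 (adjusted p = 0.0384). Both calls were lost without replicate 1 of scramble at 0 h, at 0.15 (adjusted p = 0.141) and 0.13 (adjusted p = 0.21). At 4 h the values were 10.39 and 10.55 in Mettl14 knockdown and 10.45 and 10.43 in Mettl3 knockdown, against 10.30 and 10.24 in scramble, with changes of 0.20 ± 0.06 (adjusted p = 0.0118) and 0.17 ± 0.06 (adjusted p = 0.0279). The first moved to 0.12 (adjusted p = 0.143) without replicate 2 of Mettl14 knockdown at 4 h, and the second to 0.14 (adjusted p = 0.163) without replicate 2 of scramble at 4 h.

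Over the 8 h, Alkbh5 changed in scramble by -0.45 ± 0.06 (adjusted p = 2.61e-05), whereas the changes of -0.14 ± 0.06 in Mettl14 knockdown and -0.12 ± 0.06 in Mettl3 knockdown did not pass (adjusted p = 0.055 and 0.0884). Relative to the median of all genes the changes were -0.26 in Mettl14 knockdown, -0.23 in Mettl3 knockdown and -0.60 in scramble. The difference between these changes was tested as an interaction and passed, at 0.31 ± 0.08 for Mettl14 (adjusted p = 0.0418) and 0.33 ± 0.08 for Mettl3 (adjusted p = 0.0405). Alkbh5 was the only one of the 7 to pass there, where 4.99% of all genes passed for Mettl14 (3.58% positive, 1.41% negative) and 3.47% for Mettl3 (2.46% and 1.01%). The first call was kept in 7 of 28 alternatives and the second in 9 of 28, with changes of size between 0.27 and 0.36 among those that lost it. No change of Alkbh5 between 0 h and 4 h passed (-0.01, -0.02 and -0.03 in Mettl14 knockdown, Mettl3 knockdown and scramble). The repeat set gave overlapping knockdown and control arrays for Mettl14, at 10.61 and 10.68 against 10.57 and 10.66 (0.03 ± 0.05), and for Mettl3 they did not, at 10.59 and 10.57 against 10.45 and 10.42, without passing (0.14 ± 0.05, adjusted p = 0.062).

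Fto, the first enzyme found to demethylate m6A in RNA, went in opposite directions after Mettl14 knockdown in the 2 sets. In the time course its signals at 0 h were 9.26 and 9.11 in Mettl14 knockdown, against 9.44 and 9.44 in scramble, a change of -0.26 ± 0.07 (adjusted p = 0.0109). They were 9.39 and 9.39 against 9.64 and 9.65 at 4 h, and 9.30 and 9.38 against 9.78 and 9.84 at 8 h. The groups did not overlap at any time, and the change reached -0.25 ± 0.07 at 4 h (adjusted p = 0.0111) and -0.47 ± 0.07 at 8 h (adjusted p = 0.00014). In the repeat set Fto was instead 9.37 and 9.43 in Mettl14 knockdown, against 9.27 and 9.23 in its control, a change of 0.15 ± 0.05 (adjusted p = 0.0446). The sets differed by 0.41 ± 0.09 (adjusted p = 0.00395, in 26 arrays), where 8.64% of all genes had a positive difference, and this call was kept in all 36 alternatives. The rise in the repeat set passed in 6 of 19 alternatives, and without both scramble arrays described as 4 h it was 0.13 (adjusted p = 0.198). The fall at 0 h was lost without replicate 2 of Mettl14 knockdown (-0.18, adjusted p = 0.11), narrowly without replicate 1 of scramble (-0.26, adjusted p = 0.0503) and with the long-lived list set equal (-0.18, adjusted p = 0.0508). At 4 h it was lost without replicate 1 or 2 of Mettl14 knockdown (adjusted p = 0.0503 and 0.051) or replicate 2 of scramble (adjusted p = 0.055), and the fall at 8 h was kept in all 28 alternatives.

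Mettl3 knockdown left no call on Fto. The signals were 9.52 and 9.58 at 0 h, 9.66 and 9.62 at 4 h and 9.88 and 9.68 at 8 h, with changes of 0.10 ± 0.07, 0.00 ± 0.07 and -0.03 ± 0.07 against scramble (adjusted p = 0.268, 0.974 and 0.725). The Mettl14 knockdown arrays lay below all Mettl3 knockdown arrays at each time, but the difference between the knockdowns was not tested. The Mettl3 knockdown arrays of the repeat set had 9.46 and 9.45, against 9.35 and 9.28, which did not overlap and did not pass (0.13 ± 0.05, adjusted p = 0.0644).

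Ythdf1, a cytoplasmic reader linked to translation, had 11.44 and 11.58 in Mettl14 knockdown at 0 h of the time course, against 11.38 and 11.31 in scramble. It had 11.39 and 11.28 against 11.14 and 11.17 at 4 h, and 11.21 and 11.15 against 10.91 and 10.92 at 8 h. The groups did not overlap at any time, and the changes were 0.17 ± 0.06 (adjusted p = 0.0467), 0.18 ± 0.06 (adjusted p = 0.0355) and 0.27 ± 0.06 (adjusted p = 0.00351). The change at 0 h passed in 10 of 29 alternatives and was 0.10 (adjusted p = 0.326) without replicate 2 of Mettl14 knockdown and 0.13 (adjusted p = 0.224) without replicate 2 of scramble. The change at 4 h was 0.12 (adjusted p = 0.246) without replicate 1 of Mettl14 knockdown, and that at 8 h passed in all 28. Mettl3 knockdown arrays had 11.45 and 11.46 at 0 h, 11.19 and 11.29 at 4 h and 11.03 and 11.10 at 8 h, also above scramble, but did not pass (0.11, 0.09 and 0.15, each ± 0.06, adjusted p = 0.181, 0.317 and 0.0669). In the repeat set Ythdf1 had 10.86 and 10.88 in Mettl14 knockdown, against 10.87 and 10.84, and 10.80 and 10.84 in Mettl3 knockdown, against 10.90 and 10.90, and neither change passed (0.01 ± 0.04 and -0.08 ± 0.04). A dimmer Ythdf1 probe set did not pass in any knockdown comparison, with changes from -0.30 ± 0.14 to 0.24 ± 0.14.

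Ythdf3, the paralogue that works beside YTHDF1 and YTHDF2 in the cytoplasm, passed in 1 knockdown comparison. Its repeat set values were 10.23 and 10.33 in Mettl14 knockdown, against 10 and 10.14 in the control, a change of 0.21 ± 0.06 (adjusted p = 0.0408) that passed in 8 of 19 alternatives. That change was 0.13 (adjusted p = 0.189) without replicate 1 of the control and 0.15 (adjusted p = 0.187) without replicate 2 of the knockdown. In the time course Mettl14 knockdown had 10.69 and 10.69 at 0 h, 10.47 and 10.65 at 4 h and 10.29 and 10.44 at 8 h, against 10.55 and 10.44, 10.35 and 10.34, and 10.17 and 10.33 in scramble. The groups overlapped at 8 h and not before, and no change passed (0.20, 0.22 and 0.11, each ± 0.09). Mettl3 knockdown changes lay between 0.03 and 0.12 in both sets and did not pass.

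Ythdc2 showed no knockdown call. At 0 h it had 9.02 and 8.93 in Mettl14 knockdown and 8.86 and 8.97 in Mettl3 knockdown, against 8.84 and 9.07 in scramble, and the arrays overlapped (0.02 ± 0.13 and -0.04 ± 0.13). The repeat set gave 8.69 and 8.76 in Mettl14 knockdown against 8.72 and 8.70, and the same 8.75 and 8.80 in Mettl3 knockdown and its control, with changes of 0.02 ± 0.05 and 0.00 ± 0.05. Its SE of 0.13 in the time course was the widest of the 7, and changes of the size seen for Alkbh5 at 0 h were not detectable there.

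The changes over time are relative, because the array values are scaled to equal overall brightness. The median of all genes moved by 0.10 to 0.15 between 0 h and the later times, and by -0.05 to 0.01 when a list of long-lived transcripts was set equal instead, so 8 h changes are also given relative to that median. At 4 h, 4 of the 7 genes passed in each treatment. In Mettl14 knockdown 2 were higher and 2 lower, where 46.2% of all genes passed (33% higher, 13.1% lower). In Mettl3 knockdown 1 was higher and 3 were lower, where 44.6% passed (31.5% and 13.1%), and in scramble 2 were higher and 2 lower, where 46.3% passed (32.7% and 13.5%). At 8 h, 5 passed in Mettl14 knockdown, 1 higher and 4 lower, against 56.2% of all genes (36.8% higher, 19.4% lower). In Mettl3 knockdown 6 passed, 2 higher and 4 lower, against 56.1% (36.9% and 19.2%), and in scramble all 7 passed, 2 higher and 5 lower, against 60.8% (39.2% and 21.6%). With the long-lived list set equal, the share of called genes that were higher became 38.8%, 42% and 37.9% at 8 h in Mettl14 knockdown, Mettl3 knockdown and scramble, against 65.5%, 65.9% and 64.5%, and 36.1%, 41% and 42% at 4 h, against 71.5%, 70.7% and 70.7%. With quantile normalization within the set it was 74.7% at 8 h in scramble.

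Ythdc2 had the largest change over time. Its signals at 0 h, 4 h and 8 h were 9.02 and 8.93, 8.78 and 8.77, and 7.82 and 8.15 in Mettl14 knockdown. They were 8.86 and 8.97, 8.81 and 8.71, and 8.32 and 8.00 in Mettl3 knockdown, and 8.84 and 9.07, 8.83 and 8.93, and 8.36 and 8.14 in scramble. All 6 arrays at 8 h lay below all 12 earlier ones, while 4 h and 0 h overlapped in scramble. The 8 h changes were -0.99 ± 0.13 in Mettl14 knockdown, -0.75 ± 0.13 in Mettl3 knockdown and -0.71 ± 0.13 in scramble (adjusted p = 3.75e-05, 0.000326 and 0.000469), or -1.11, -0.86 and -0.86 relative to the median gene. No 4 h change passed (-0.20, -0.15 and -0.08), and the difference of the 8 h changes between knockdown and scramble did not pass (-0.28 ± 0.18 and -0.04 ± 0.18 for Mettl14 and Mettl3 against scramble, adjusted p = 0.435 and 0.927).

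Ythdc1 and Ythdf3 also fell over 8 h in every treatment. Ythdc1 changed by -0.34 ± 0.04, -0.27 ± 0.04 and -0.26 ± 0.04 at 8 h in Mettl14 knockdown, Mettl3 knockdown and scramble, or -0.47, -0.38 and -0.41 relative to the median gene, and had passed by 4 h in each, at -0.26, -0.16 and -0.20. The 4 h call in Mettl3 knockdown was lost without replicate 1 at 0 h or replicate 2 at 4 h (adjusted p = 0.0567 and 0.0516). Ythdf3 changed by -0.32 ± 0.09, -0.27 ± 0.09 and -0.24 ± 0.09 at 8 h (adjusted p = 0.00749, 0.0217 and 0.0305), or -0.45, -0.37 and -0.39 relative to the median gene, with arrays of 0 h and 8 h apart in every treatment. Single arrays decided these Ythdf3 calls: the change was -0.25 (adjusted p = 0.0705) without replicate 1 of Mettl14 knockdown at 8 h, -0.19 (adjusted p = 0.164) without replicate 2 of Mettl3 knockdown at 0 h, and -0.16 (adjusted p = 0.206) without replicate 1 of scramble at 8 h.

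Ythdf1 gave conflicting signs on its probe sets. The brighter one changed by -0.33 ± 0.06, -0.39 ± 0.06 and -0.43 ± 0.06 at 8 h in Mettl14 knockdown, Mettl3 knockdown and scramble, and by -0.18, -0.21 and -0.19 at 4 h, and all 6 passed. Relative to the median gene the 8 h changes were -0.45, -0.50 and -0.58. The dimmer one was higher at 4 h by 0.56 ± 0.14 in Mettl14 knockdown (adjusted p = 0.00694), 0.78 ± 0.14 in Mettl3 knockdown (adjusted p = 0.000976) and 0.35 ± 0.14 in scramble, which did not pass (adjusted p = 0.0618). It had 7.82 and 7.96 at 4 h against 7.58 and 7.08 at 0 h in Mettl14 knockdown, and 7.83 and 7.74 against 7.05 and 6.96 in Mettl3 knockdown. The mean of both probe sets turned the sign at 4 h in all 3 treatments and at 8 h in both knockdowns, so the direction of Ythdf1 over time rests on the choice of probe set.

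Fto rose over time in scramble, with signals of 9.44 and 9.44 at 0 h, 9.64 and 9.65 at 4 h and 9.78 and 9.84 at 8 h. These arrays did not overlap between times, and the 8 h change of 0.37 ± 0.07 passed (adjusted p = 0.000647), or 0.22 relative to the median gene. It passed in Mettl3 knockdown at 0.23 ± 0.07 (adjusted p = 0.0137), though not without replicate 1 at 8 h (0.13, adjusted p = 0.167) or replicate 1 at 0 h (0.20, adjusted p = 0.0819). In Mettl14 knockdown it did not pass at 0.15 ± 0.07 (adjusted p = 0.0795). Relative to the median gene the Mettl3 and Mettl14 knockdown changes were 0.12 and 0.03. At 4 h it passed in Mettl14 knockdown and scramble, each 0.20 ± 0.07, but with the long-lived list set equal these were 0.05 (adjusted p = 0.649) and 0.08 (adjusted p = 0.413).

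**Figure D4:**
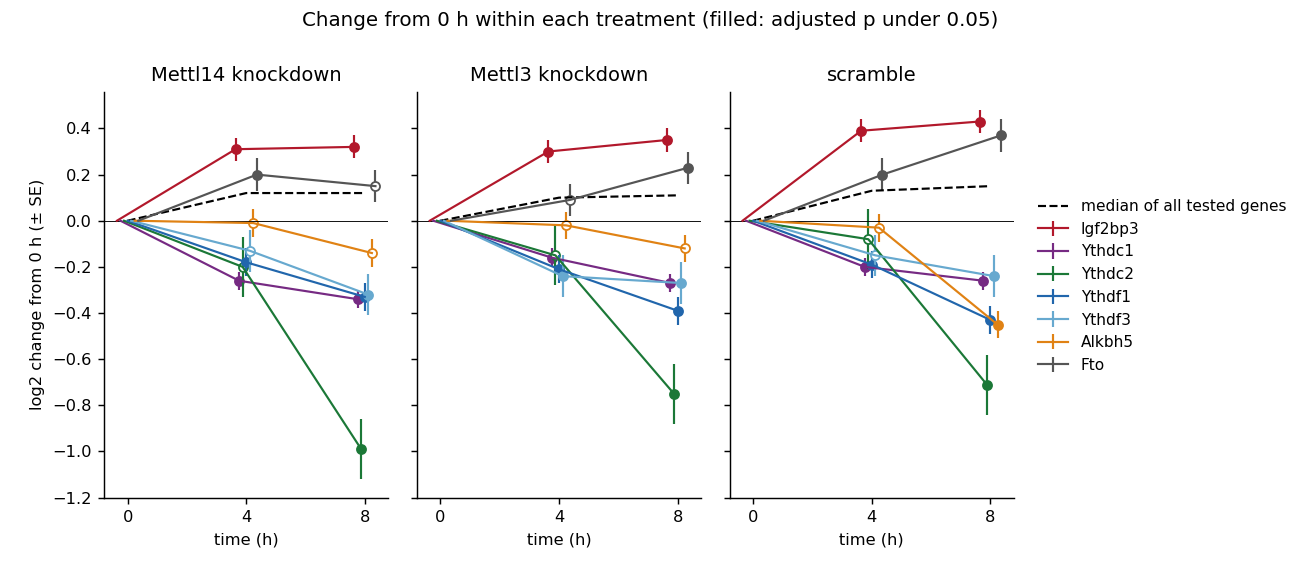
Log2 change from 0 h (y axis, ± SE) at 4 h and 8 h (x axis, h) in Mettl14 knockdown, Mettl3 knockdown and scramble, each from groups of 2 arrays. Filled points passed at an adjusted p under 0.05, and the dashed line is the median of all 14787 genes. Ythdc2 drops at 8 h in all 3 panels, Igf2bp3 lies above the median line, and Alkbh5 drops to -0.45 in scramble but lies at -0.14 and -0.12 in the knockdowns.

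Over the 13 group means, each set centred on its own mean, the range was 1.51 for Igf2bp3, 0.99 for Ythdc2, 0.67 for Ythdc1, 0.63 for Alkbh5 and Fto, 0.60 for Ythdf1 and 0.44 for Ythdf3. As a description without a test, the genes whose centred means were most like Igf2bp3 among 14786 were Parva, a focal adhesion protein, at r = 0.996, and Epha1, an ephrin receptor, and Ptprn, both at r = 0.994. For Ythdc2 they were Wasl, an activator of actin branching, at 0.980, Ube2g1 at 0.970 and Chic2 at 0.969. For Ythdc1 they were Irx2, a homeobox factor, at 0.987, Dusp4, a phosphatase of MAP kinases, at 0.982, and Zc3h12c at 0.977. The points share arrays, sets and times.

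Related genes from lists beside the 10 moved as follows. Of 12 other proteins described as binding or favouring m6A RNA, 0 passed upward and 4 to 7 passed downward in the 8 knockdown comparisons, where 17.9% to 23.8% of all genes were higher and 16.9% to 20.1% lower, and the list median lay between -0.14 and -0.05. Fxr1, a paralogue of the fragile X protein that binds RNA, changed by -0.43 ± 0.06 after Mettl14 knockdown (adjusted p = 0.000128) and changed by -0.23 ± 0.06 after Mettl3 knockdown in the time course at 0 h (adjusted p = 0.00916), and by -0.24 ± 0.04 and -0.29 ± 0.04 in the repeat set. Fmr1, the fragile X gene itself, changed by -0.16 ± 0.06 and -0.32 ± 0.06 in the time course and by -0.29 ± 0.05 and -0.14 ± 0.05 in the repeat set (adjusted p = 0.0358, 0.000629, 0.00304 and 0.0489). These 4 comparisons had Fxr1 and Fmr1 lower, where Igf2bp3 and Ythdc1 were higher.

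Among 6 other AlkB homologues, relatives of the demethylase ALKBH5, 1 was higher and 2 were lower after either knockdown at 0 h of the time course, near the 19.4% higher and 20.1% lower of all genes for Mettl14 and 19.3% and 18.6% for Mettl3. Alkbh7, a mitochondrial member, changed by -0.67 ± 0.07 and -0.80 ± 0.07 after Mettl14 and Mettl3 knockdown there (adjusted p = 1.68e-05 and 3.79e-06), and by -0.46 ± 0.06 and -0.60 ± 0.06 in the repeat set (adjusted p = 0.00154 and 0.000572). Alkbh4, a demethylase of actin, changed by 0.44 ± 0.09 and 0.42 ± 0.09 in the time course (adjusted p = 0.00182 and 0.00241), and in the repeat set by 0.14 ± 0.07, which did not pass, and 0.24 ± 0.07 (adjusted p = 0.0311).

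Of 7 tested genes of the writer complex other than Mettl3, Virma, its large scaffold, was higher in all 8 knockdown comparisons, by 0.34 ± 0.05 and 0.18 ± 0.05 at 0 h of the time course after Mettl14 and Mettl3 knockdown and by 0.34 ± 0.04 and 0.18 ± 0.04 in the repeat set. At 8 h of scramble 1 writer gene was higher and 4 were lower, where 39.2% of all genes were higher and 21.6% lower, and the list median was -0.28, that of all genes 0.15. Wtap, which anchors the complex in nuclear speckles, changed by -1.04 ± 0.06 there (adjusted p = 5.08e-08). Cbll1, an associated ubiquitin ligase, changed by -1.70 ± 0.08 (adjusted p = 7.21e-09). Both fell by less over 8 h in Mettl14 and Mettl3 knockdown, Wtap by -0.43 ± 0.06 and -0.30 ± 0.06. For Cbll1 the changes there were -1.25 ± 0.08 and -1.31 ± 0.08. Of 3 other RNA m6A methyltransferases, Mettl16, which methylates the U6 snRNA, was lower in 6 of the 8 knockdown comparisons, by -0.24 ± 0.05 and -0.15 ± 0.05 at 0 h of the time course.

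Of 7 RNAs described as bound by IGF2BP proteins, 4 were higher and 1 lower after Mettl14 knockdown at 0 h of the time course and 3 and 0 after Mettl3 knockdown, and in the repeat set 4 and 1, and 4 and 2. Of all genes 19.4% were higher and 20.1% lower for Mettl14 in the time course, 19.3% and 18.6% for Mettl3, and in the repeat set 19.4% and 16.9%, and 17.9% and 17.4%. Hmga2, a chromatin architectural protein, changed by 1.79 ± 0.08 and 1.22 ± 0.08 in the time course and 0.82 ± 0.05 and 1.17 ± 0.05 in the repeat set. Cd44, a hyaluronan receptor, changed by 1.37 ± 0.14 and 1.16 ± 0.14, and by 1.21 ± 0.08 and 0.82 ± 0.08. Igf2, a growth factor, changed by 0.72 ± 0.10 and 0.67 ± 0.10, and by 1.45 ± 0.05 and 1.16 ± 0.05. Myc, whose message is a textbook IGF2BP target, went the other way, at -0.43 ± 0.14 (adjusted p = 0.0247) and -0.25 ± 0.14 (adjusted p = 0.185), and at -0.37 ± 0.05 and -0.47 ± 0.05. The list median was 0.48 and 0.18 in the time course and 0.15 and 0.33 in the repeat set, where that of all genes was 0.00. Fibroblasts also express Hmga2, Cd44 and Igf2, and the part of feeder RNA in their changes was not tested. The feeder markers of the same groups, higher and lower, are given with Igf2bp3.

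Of 9 partners of the readers in export, splicing, decay and meiosis, 2 were higher and 2 lower after Mettl14 knockdown at 0 h of the time course, and 1 and 2 after Mettl3 knockdown, near the shares of all genes given for the AlkB homologues. Rbm46, a germline RNA-binding protein that works with YTHDC2, was higher by 0.61 ± 0.14 and 0.41 ± 0.14 (adjusted p = 0.00425 and 0.038), and by 0.94 ± 0.06 and 0.69 ± 0.06 in the repeat set. Nxf1, the main messenger RNA export receptor, changed by -0.29 ± 0.04 and -0.17 ± 0.04 in the time course (adjusted p = 0.0002 and 0.00714), and in the repeat set by -0.09 ± 0.04, which did not pass, and -0.14 ± 0.04 (adjusted p = 0.0444).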

How the data were processed

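The values are log2 signals per probe set of 26 arrays, deposited by the authors after RMA. The submitters' processing notes name oligo without a version. RMA corrects background and equalises the arrays' distributions, so changes are relative. Of 41345 probe sets, 23521 carry 1 gene symbol. Each gene was represented by its brightest probe set, and the third of genes with the lowest mean (7393) was left out. Tests used limma 3.58.1 under R 4.3.3 (lmFit and eBayes, two-sided, Benjamini-Hochberg over 14787 genes). Residual degrees of freedom were 9 in the time course, 4 in the repeat set and 13 over all arrays. The scripts were tested on simulated data. The titles call the replicates biological without saying what was separate, so the p-values cover only spread among these arrays, and 2 arrays a group limit the precision. The files name no slide or scan date. The members and lists were chosen with earlier results of these data known. Named are all 10 members, both targets and up to 3 genes of each other list by adjusted p in a comparison. For the 3 members of widest range the 3 genes most like each are also named. Exceptions named after their values were seen are the collagen genes and other markers that did not pass. Alternatives covered the dim filter, probe set choice, eBayes options, array weights, replicate block, scaling, the arrays fitted and leaving out each array. Other lists, as genes higher and lower after Mettl14 knockdown at 0 h of the time course, were trophectoderm (5 and 1 of 8), primed epiblast (5 and 1 of 7) and long-lived transcripts (3 and 2 of 21). Of all tested genes 19.4% were higher and 20.1% lower in that comparison.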

Additional observations from a re-analysis of the deposited data

Results flagged for a closer look

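The difference between the 8 h changes of knockdown and scramble passed for Alkbh5, at 0.31 ± 0.08 for Mettl14 and 0.33 ± 0.08 for Mettl3 (limma, adjusted p = 0.0418 and 0.0405). Both knockdown arrays exceeded both scramble arrays at 8 h in each case, but also at 0 h and 4 h, so this separation does not bear on the interaction. Both tests share the scramble arrays, and most alternatives lost each call.

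The Mettl14 knockdown effect on Fto at 0 h differed between the sets by 0.41 ± 0.09 (repeat set minus time course, adjusted p = 0.00395), with opposite signs in the sets.

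For Igf2bp3 the knockdown effect differed between the sets by -0.56 ± 0.06 for Mettl14 and -0.41 ± 0.06 for Mettl3 (adjusted p = 1.1e-05 and 0.000372), with the same sign in both. Anything else that differed between the sets cannot be told apart from the set.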

How the results depend on the processing

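Igf2bp3 and Ythdc1 kept their calls in all 8 knockdown comparisons under every alternative run (19 to 29 each). The number of the 7 genes called after Mettl14 knockdown at 0 h, 5, became 3 with the 6 arrays of that time alone. In the repeat set the 4 called after Mettl14 knockdown became 2 with no filter on dim genes, with quantile normalization, with all 26 arrays in 1 fit and without both scramble arrays described as 4 h. The 2 called after Mettl3 knockdown became 4 with a stricter filter on dim genes, with trend and robust eBayes and with quantile normalization. With no filter the 4 called at 4 h became 2 in Mettl14 knockdown and in scramble. The Alkbh5 interaction was lost, leaving 0 called for either knockdown, with no filter, array weights, a replicate block, quantile normalization or the long-lived list set equal. The cause was not tested. Leaving out single arrays gave 2 to 5 called after Mettl14 knockdown at 0 h, 2 to 5 at 4 h, 5 to 6 at 8 h and 2 to 3 in the repeat set. After Mettl3 knockdown it gave 2 to 3 at 0 h, 2 to 3 at 4 h, 3 to 3 at 8 h and 2 to 2 in the repeat set. Over time it gave 2 to 4 at 4 h in each treatment, and at 8 h 4 to 6 in Mettl14 knockdown, 4 to 6 in Mettl3 knockdown and 6 to 7 in scramble, with 0 to 1 for each interaction and 2 to 2 and 1 to 1 for the differences between sets.

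With the mean of its probe sets Ythdf1 turned to 0.19 at 4 h and 0.01 at 8 h in Mettl14 knockdown, 0.28 and 0.09 in Mettl3 knockdown, and 0.08 at 4 h in scramble. Replicate numbers gave no steady pairing of the arrays over the groups of a set: the correlation of deviations between same-numbered arrays was over 0.1 in 12 of 36 pairs of the time course (-0.44 to 0.34) and 0 of 6 in the repeat set, and 4 of 9 and 2 of 4 groups lay nearest to their own number. Most of these pairs cross treatments. Within a treatment of the time course the correlations were 0.053 to 0.082 in scramble, -0.436 to 0.137 in Mettl14 knockdown and -0.246 to 0.273 in Mettl3 knockdown. These values are few, so pairing within a treatment is not excluded. With the replicate block the counts were 4 after Mettl14 knockdown at 0 h, 3 in its repeat and 0 for both interactions, and all other counts of called members were equal. Over all genes the interaction calls, 738 for Mettl14 and 513 for Mettl3, became 345 and 251 with no filter, 1168 and 972 in 1 fit of all arrays, 430 for Mettl14 with array weights, 480 with the long-lived list set equal and 789 for Mettl3 with trend and robust eBayes. The share of them that was positive, 71.8% and 71%, became 54.9% and 54.1% with quantile normalization. For the differences between sets, 52.4% and 37.3% became 39.3% and 15.6% with the long-lived list set equal. Small changes near 0.2 are limited by 2 arrays a group.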
